A study of Mus musculus with 8 samples.

Results

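The genes described here mark the early stages of the oligodendrocyte lineage. They were 8 of the 34980 genes in the count files: Pdgfra and Cspg4 as markers of precursor cells, Olig1, Olig2 and Sox10 as lineage transcription factors, and Gpr17, Enpp6 and Bcas1 as markers of newly formed oligodendrocytes. Each was chosen by name, represented by its most counted transcript, and all 8 passed the filter that left 15841 genes for testing. RNA was sequenced from layer IV of the visual cortex, dissected manually from mice of the B6D2 strain. The 3 groups were wild-type mice (Otx2 +/+) at postnatal day 30 (P30), wild-type mice at P100, and heterozygous mice at P30, labelled Otx2 +/- and, in the series text, Otx2 +/GFP. The Otx2 protein is a homeodomain transcription factor. Tissue of 4 mice was pooled per condition and each group had 2 libraries. The 2 heterozygous P100 samples were not analysed here.

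Oligodendrocyte precursor cells persist in the adult cortex, where they divide and in part leave the cycle to become oligodendrocytes. Precursors carry the PDGF receptor alpha and the NG2 proteoglycan on their surface, and these are lost as the cells differentiate. Between the precursor and the myelin-forming cell lies a short-lived stage that expresses Gpr17, Enpp6 and Bcas1, while Olig1, Olig2 and Sox10 are present throughout the lineage. In visual cortex, myelin is laid down through the same weeks in which the critical period for ocular dominance plasticity closes.

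Gene-level totals ran from 11016841 to 15308781 counts per library. Whether the duplicates were separate pools is not stated in the labels. The p-values therefore reflect only the spread between libraries of the same group, which may be technical. That spread was pooled over the 3 groups and drawn towards that of other genes. Levels are given as CPM, counts relative to the TMM-scaled library total, and a gene was called where edgeR's quasi-likelihood test gave a Benjamini-Hochberg adjusted p under 0.05 over all tested genes. Sex-linked transcripts separated the genotypes: Xist ranged from 0.264 to 0.639 CPM in wild type but stood at 785 and 924 CPM in heterozygotes, so genotype and this difference cannot be told apart. Heterozygous replicate 2 stood apart in choroid plexus RNA, with 584 CPM of Ttr against 0 or 1 count in each other library, and it alone held Otx2 counts (73). The heterozygous label could therefore not be checked by Otx2. Markers of layer IV neurons were present in all libraries, with a summed level of 849 to 986 CPM at wild-type P30, 901 to 931 CPM at wild-type P100 and 802 to 850 CPM in heterozygotes. Rorb, named as the largest part of this sum, had a mean of 545 CPM at wild-type P30 and 510 CPM in heterozygotes. The 6 markers had a median log2 difference of -0.40 by genotype. Because whole tissue was measured, fewer cells of a type and less RNA per cell cannot be told apart.

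The 250 bases before the RefSeq start of transcription were read for the members held in the RefSeq promoter table of build GRCm38.p6. It held 4 of the 8, Pdgfra, Cspg4, Olig2 and Enpp6, which span the 3 classes. Except for Enpp6, these starts differ from those of the GENCODE genes whose coordinates are given with each gene: the Cspg4 and Olig2 windows run past the GENCODE start, and the Pdgfra window ends short of it. The windows that lie wholly before both starts, those of the precursor gene Pdgfra and the newly formed cell gene Enpp6, are shown because most members moved together with age, and because the set itself contains a Sox factor and basic helix-loop-helix factors. Such factors bind short Sox motifs and E-boxes, respectively. Capitals mark every match, on either strand, to the Sox motifs ACAAAG and ACAATG or to the E-boxes CAGCTG and CAGATG.
Pdgfra, plus strand, chr5:75152001-75152250: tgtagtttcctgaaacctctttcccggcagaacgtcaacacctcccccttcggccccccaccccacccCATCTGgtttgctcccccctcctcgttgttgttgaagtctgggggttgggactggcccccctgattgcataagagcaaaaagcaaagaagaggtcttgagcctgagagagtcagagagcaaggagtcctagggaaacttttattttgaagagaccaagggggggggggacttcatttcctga
Enpp6, plus strand, chr8:46986637-46986886: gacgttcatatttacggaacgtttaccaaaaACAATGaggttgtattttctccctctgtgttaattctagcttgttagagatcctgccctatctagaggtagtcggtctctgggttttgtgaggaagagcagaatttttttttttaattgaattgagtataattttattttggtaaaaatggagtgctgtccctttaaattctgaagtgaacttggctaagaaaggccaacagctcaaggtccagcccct

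The Pdgfra window held the E-box CAGATG on the minus strand, printed above as CATCTG, at position -182 from the RefSeq start. The Enpp6 window held ACAATG on the plus strand at -219. In the Olig2 window (chr16:91225300-91225549) ACAATG lay on the minus strand at -68 from the RefSeq start, which is inside the gene by the GENCODE start. None of the 4 motifs was found in the Cspg4 window (chr9:56864854-56865103). These matches are common: of 32851 mouse promoter windows of the same length, 25.2% held either Sox motif and 25.5% held either E-box. A match describes the letters and is no sign of binding.

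The first comparison asked how the lineage genes differed between wild-type cortex at P100 and at P30. All 8 stood lower at P100, and 6 of them passed the test: Pdgfra, Cspg4, Olig1, Gpr17, Enpp6 and Bcas1. Of all tested genes, 719 (4.54%) were called lower and 475 higher. The newly formed cell markers Enpp6 and Gpr17 fell most, 4.62-fold and 2.28-fold, and the 4 other called members fell 1.37-fold to 1.56-fold. The median log2 difference of the 8 was -0.55, beside 0.00 over all tested genes. The 2 libraries at P100 lay below both at P30 for all 8 genes, an arrangement held by 25.7% of tested genes. Without wild-type P100 replicate 2, only Gpr17 and Enpp6 among the members passed the test. Scaling by library totals alone moved the calls over all genes from 475 higher and 719 lower to 707 higher and 560 lower, with the same 6 members lower.

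The second comparison was between the genotypes at P30. Only Bcas1 among the members was called, 1.45-fold lower in heterozygotes, where 2.32% of tested genes were called lower. Library-total scaling moved those calls from 143 higher and 368 lower to 211 higher and 319 lower. The members did not all lie on the same side: Pdgfra stood higher in both heterozygous libraries, 4 genes (Cspg4, Olig1, Enpp6 and Bcas1) stood lower in both, and the other 3 overlapped. Over all tested genes, 24.5% stood higher in both heterozygous libraries and 24.4% lower. The median log2 difference of the 8 was -0.30, beside 0.00 over all tested genes. The Bcas1 transcript without antisense overlap, used next as an alternative, held 568 counts in all, beside 4101 for the top transcript. Leaving out wild-type P30 replicate 2 (adjusted p = 0.0682) or heterozygous replicate 1 (0.140) ended the Bcas1 call, as did the use of a Bcas1 transcript free of antisense overlap (0.075), and no member was called then. Without heterozygous replicate 2, the library with choroid plexus RNA, the Bcas1 difference was -0.61 (adjusted p = 0.0268), no other member was called, and the Gpr17 difference was -0.04.

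**Figure D1:**
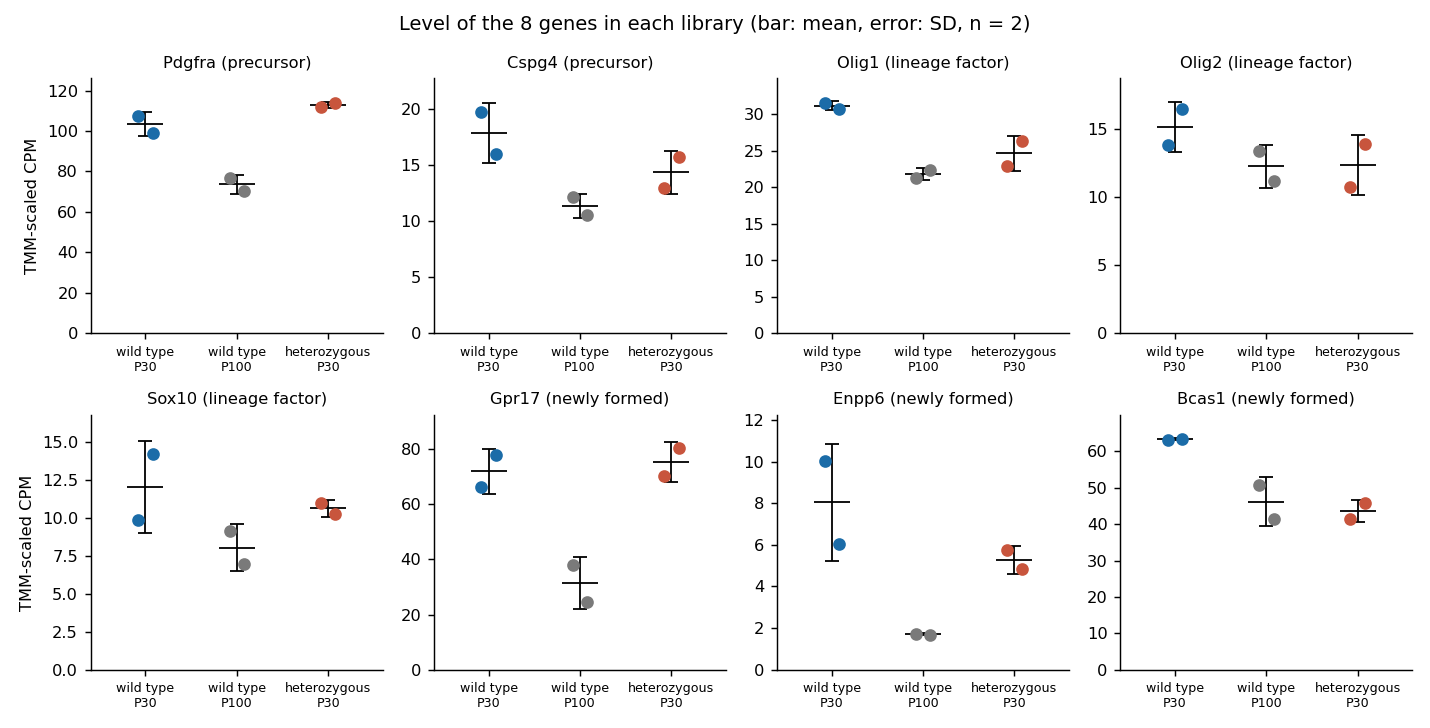
TMM-scaled CPM (vertical axes, from 0) of the 8 genes in each of the 6 libraries (points), by group, with the group mean (long bar) and SD (error bar, n = 2). In every panel both wild-type P100 libraries lie below both wild-type P30 libraries, and the heterozygous libraries lie near the P30 level for Pdgfra and Gpr17 and near the P100 level for Bcas1.

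Pdgfra (ENSMUSG00000029231, mm10 chromosome 5, 75152292 to 75198215, plus strand) encodes the receptor through which PDGF drives precursor division and survival. It stood at 107 and 99.0 CPM in the wild-type P30 libraries, 76.9 and 70.4 CPM at wild-type P100, and 112 and 114 CPM in the heterozygous P30 libraries. The P100 libraries were the lowest, and the heterozygous libraries were slightly above both wild-type libraries of the same age. The fall with age was -0.48 on the log2 scale (SE 0.081, adjusted p = 0.00305), or 1.40-fold. The genotype difference was 0.13 (SE 0.079, adjusted p = 0.435). Pdgfra rested on 800 to 1750 counts per library, and without wild-type P100 replicate 2 its age difference had an adjusted p of 0.0555.

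Cspg4 (ENSMUSG00000032911, chromosome 9, 56865033 to 56899870, plus strand) encodes the NG2 proteoglycan, which pericytes carry as well. Its levels were 19.7 and 15.9 CPM at wild-type P30, 12.1 and 10.6 CPM at wild-type P100, and 12.9 and 15.7 CPM in heterozygotes. Both the P100 and the heterozygous libraries lay below the wild-type P30 libraries, the latter by a narrow gap. Cspg4 was 1.56-fold lower at P100 (log2 -0.64, SE 0.156, adjusted p = 0.0245), and the genotype difference of -0.31 was not called (SE 0.149, adjusted p = 0.312). Its age call was lost when any 1 of 3 libraries was left out (wild-type P30 replicate 1, P100 replicate 1 or P100 replicate 2, adjusted p 0.0705 to 0.171) and with counts summed over transcripts (0.0685).

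Markers of pericytes and other mural cells, which share Cspg4 with precursors, were also lower in sum at P100. Their summed level over 12 genes was 291 to 293 CPM at wild-type P30, 234 to 237 CPM at wild-type P100 and 269 to 289 CPM in heterozygotes. Of the 12, 1 was called lower at P100, Rgs5, a regulator of G-protein signalling typical of pericytes, at 193 against 149 CPM, and none was called by genotype. Rgs5 was also the largest part of the sum, so the fall in sum is mostly that of this gene. The median log2 difference of the 12 was -0.24 with age and -0.25 with genotype. Fibroblasts and meninges, which can also carry Pdgfra, had 11 tested markers with a summed level of 29.9 to 33.8, 22.5 to 24.4 and 39.2 to 39.8 CPM in the same order of groups. Of these, Igf2 alone was called with age, lower at P100, and none by genotype. The part of these cells in the Pdgfra and Cspg4 values was not tested.

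Among the lineage transcription factors, Olig1 was called with age and none by genotype. Olig1 (ENSMUSG00000046160, chromosome 16, 91269772 to 91271933, plus strand), a basic helix-loop-helix factor required for oligodendrocyte maturation, stood at 31.6 and 30.7 CPM at wild-type P30, 21.2 and 22.4 CPM at wild-type P100, and 22.9 and 26.3 CPM in heterozygotes. The wild-type P30 libraries were the highest and the other groups lay close together. The age difference was -0.52 (SE 0.112, adjusted p = 0.0143), or 1.43-fold, and it lost its call without either P100 library (adjusted p 0.0889 and 0.0667). The genotype difference was -0.34 (SE 0.109, adjusted p = 0.116). Olig1 shares 7.3% of its exon bases with an antisense gene, and the use of strand in counting is not given in the sources used here.

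Olig2 (ENSMUSG00000039830, chromosome 16, 91225457 to 91228677, plus strand), the related factor that specifies the lineage, lies on the same chromosome, upstream of Olig1. Its levels were 13.9 and 16.5 CPM at wild-type P30, 13.4 and 11.2 CPM at wild-type P100, and 10.8 and 13.9 CPM in heterozygotes. The heterozygous libraries overlapped the wild-type P30 ones, and the P100 libraries lay just below. Neither the age difference of -0.31 (SE 0.163, adjusted p = 0.289) nor the genotype difference of -0.30 (SE 0.160, adjusted p = 0.358) was called.

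Sox10 (ENSMUSG00000033006, chromosome 15, 79154908 to 79165240, minus strand) encodes an HMG-box factor that drives terminal differentiation and myelin genes. It was measured at 9.86 and 14.2 CPM at wild-type P30, 9.12 and 6.95 CPM at wild-type P100, and 10.99 and 10.2 CPM in heterozygotes. Its wild-type P30 libraries differed most among the 3 groups. The age difference of -0.59 (SE 0.194) missed the threshold at an adjusted p of 0.0852, and it was called without wild-type P30 replicate 1 (0.0296) and with no filter on low counts (0.0102). The genotype difference was -0.20 (SE 0.184, adjusted p = 0.638).

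Gpr17 (ENSMUSG00000052229, chromosome 18, 31942997 to 31949636, minus strand) encodes a G-protein-coupled receptor that marks committed precursors and holds back their maturation. Its levels were 66.2 and 77.7 CPM at wild-type P30, 38.1 and 24.6 CPM at wild-type P100, and 70.2 and 80.3 CPM in heterozygotes. The P100 libraries stood clearly apart below the other 4, and the P30 genotypes overlapped. Gpr17 was 2.28-fold lower at P100 (log2 -1.19, SE 0.155, adjusted p = 5.14e-04), and this call held under each of the 18 alternatives tried. Among the 18 are swaps of the Bcas1 and of the Enpp6 transcript, which change the counts of that gene only and so do not bear on other members. Between genotypes the difference was 0.06 (SE 0.145, adjusted p = 0.872). Gpr17 shares 3.6% of its exon bases with the antisense gene Lims2, and none of the 18 alternatives set these bases aside.

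Enpp6 (ENSMUSG00000038173, chromosome 8, 46986887 to 47096762, plus strand) encodes a choline phosphodiesterase of newly differentiating oligodendrocytes. It was the scarcest of the 8 in counts, with 110 and 87 counts in the wild-type P30 libraries, 24 and 19 in those of wild-type P100, and 86 and 74 in heterozygotes. In CPM these were 10.04 and 6.05, 1.74 and 1.67, and 5.76 and 4.82. Exact Poisson 95% intervals of the P100 values, 1.11 to 2.59 and 1.01 to 2.61 CPM, cover counting error only and lie below the lowest P30 library. Enpp6 was 4.62-fold lower at P100 (log2 -2.21, SE 0.293, adjusted p = 5.83e-04), again under each of the 18 alternatives. Heterozygotes stood below wild type at P30 in both libraries, with a difference of -0.58 that was not called (SE 0.238, adjusted p = 0.219). The most counted transcript is annotated as a target of nonsense-mediated decay and held 400 counts in all, beside 398 for the protein-coding transcript. Reads are counted in each isoform they overlap, so these are largely the same reads.

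Bcas1 (ENSMUSG00000013523, chromosome 2, 170346991 to 170427845, minus strand) encodes a protein of newly formed, early myelinating oligodendrocytes. It stood at 63.1 and 63.5 CPM at wild-type P30, 50.9 and 41.4 CPM at wild-type P100, and 41.5 and 45.8 CPM in heterozygotes. The 2 other groups lay below the closely matched wild-type P30 libraries and overlapped each other. The age difference was -0.45 (SE 0.107, adjusted p = 0.0209), or 1.37-fold, and the genotype difference -0.54 (SE 0.106, adjusted p = 0.0138), or 1.45-fold. The top transcript shares 16.3% of its exon bases with antisense genes. In the most counted Bcas1 transcript without such overlap, the genotype difference was -0.62 with an adjusted p of 0.075, and the age difference had an adjusted p of 0.213. That is a processed transcript of 688 bases with 568 counts in all, beside 4101 for the top transcript, so its test rested on fewer reads. The part of antisense reads in the Bcas1 values was not tested. The age call was also lost without either wild-type P30 library (0.0567 and 0.073) or without wild-type P100 replicate 2 (0.174).

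**Figure D2:**
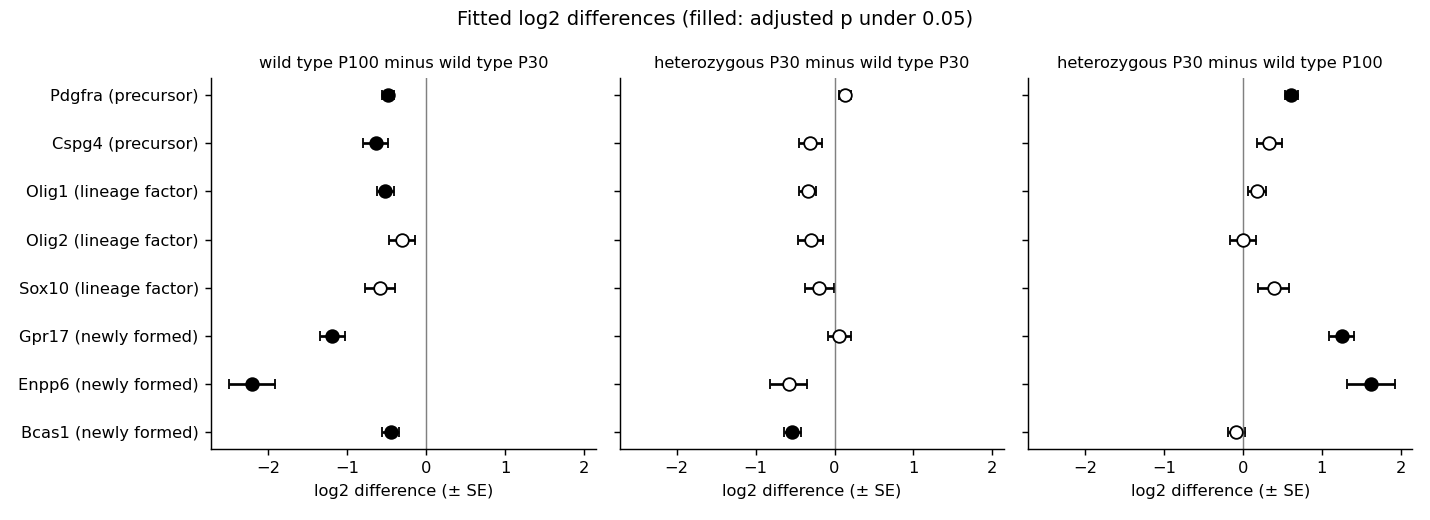
Fitted log2 differences (horizontal axes, ± SE) of the 8 genes in the 3 comparisons, with filled points where the adjusted p was under 0.05. All points lie below 0 in the age panel, only Bcas1 is filled in the genotype panel, and Pdgfra, Gpr17 and Enpp6 are filled in the panel of heterozygous P30 against wild-type P100.

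The age and genotype comparisons share the wild-type P30 libraries, so their values cannot be correlated as independent results. Whether the differences of a gene by genotype and by age are unequal was tested by setting heterozygous P30 directly against wild-type P100, since the shared libraries drop out. Age, genotype and the sex-linked transcripts all differ between these groups and cannot be told apart. Of the 8 members, 3 were called higher in heterozygous P30 tissue, where 2.44% of tested genes were called higher. Pdgfra was 1.53-fold higher (log2 0.61, SE 0.080, adjusted p = 7.22e-04), Gpr17 2.38-fold (1.25, SE 0.154, adjusted p = 4.45e-04) and Enpp6 3.09-fold (1.63, SE 0.302, adjusted p = 0.00741). The Pdgfra and Gpr17 calls held under each of the 18 alternatives, and the Enpp6 call was lost without either wild-type P100 library (adjusted p 0.0727 and 0.0716). Without heterozygous replicate 2 the 3 calls stood, at 0.60, 1.15 and 1.75 for Pdgfra, Gpr17 and Enpp6. Cspg4 (0.33, adjusted p = 0.262), Olig1 (0.18, adjusted p = 0.427), Olig2 (0.00, adjusted p = 0.994), Sox10 (0.39, adjusted p = 0.291) and Bcas1 (-0.08, adjusted p = 0.741) were not called, which does not show that their levels were alike. For 6 of the 8 genes both heterozygous libraries lay above both P100 libraries, an arrangement held by 25.4% of tested genes. Other genes, described below, were also called higher here: 5 of 12 precursor, 2 of 15 newly formed and 8 of 17 myelinating genes. Among them, only Hapln2, a myelinating gene, was called lower.

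Precursor and newly formed cell genes were then set against each other within each library, which removes the scaling between libraries. For every 100 Pdgfra counts, the wild-type libraries had 61.7 and 78.5 Gpr17 counts at P30 and 49.6 and 35.0 at P100, and the heterozygous ones had 62.9 and 70.5. The corresponding Enpp6 counts were 9.35 and 6.11, then 2.26 and 2.38, then 5.17 and 4.23. Gpr17 and Enpp6 were thus lowest relative to Pdgfra at P100, with no overlap with either P30 group. Bcas1 followed another order, at 58.8 and 64.1 per 100 Pdgfra counts in wild type at P30, 66.1 and 58.9 at P100, and 37.2 and 40.2 in heterozygotes. Relative to Pdgfra, Bcas1 overlapped between the ages and was lower in both heterozygous libraries. Bcas1 counts per 100 Gpr17 counts were 95.3 and 81.7 in wild type at P30, 133 and 168 at P100, and 59.1 and 57.1 in heterozygotes, so that the 3 groups did not overlap.

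**Figure D3:**
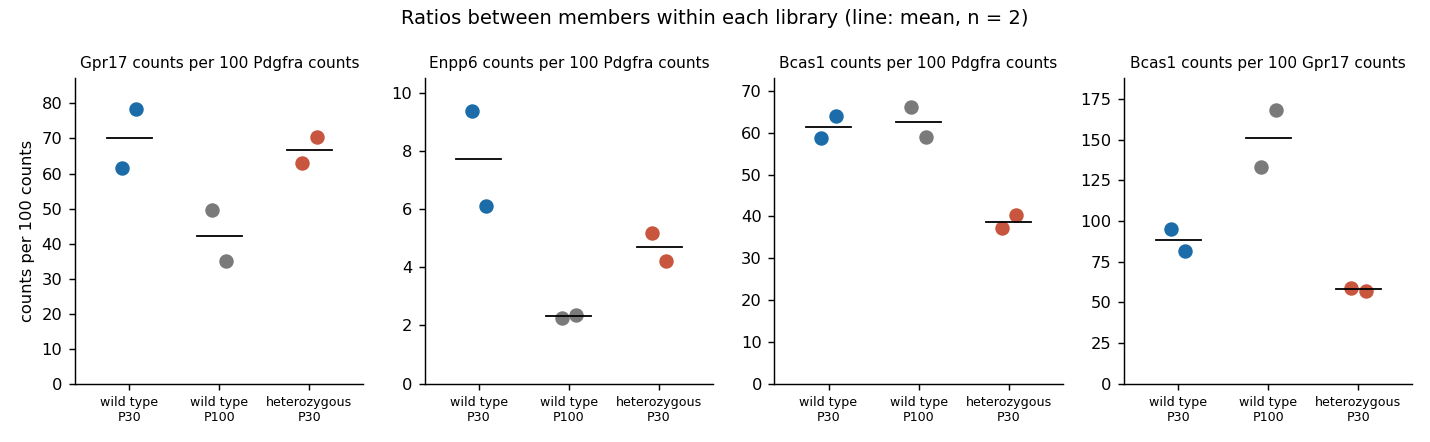
Counts of 1 gene per 100 counts of another in each library (points, vertical axes from 0), with the mean of each group of 2 (line). Gpr17 and Enpp6 per 100 Pdgfra counts are lowest at wild-type P100, whereas Bcas1 per 100 Pdgfra counts is lowest in heterozygotes, at 37.2 and 40.2.

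The mean log2 CPM of Gpr17, Enpp6 and Bcas1 minus that of Pdgfra and Cspg4 was -0.38 ± 0.035 (SD, n = 2) at wild-type P30, -1.11 ± 0.117 at wild-type P100 and -0.63 ± 0.090 in heterozygotes. Neither P100 library overlapped the 4 P30 libraries, and the heterozygous libraries (-0.57 and -0.70) lay between the other groups. With 2 libraries against 2 the smallest exact two-sided p is 0.333, so no test of this difference was made. Without Bcas1, the drop with age was -1.14 in place of -0.73, and the genotype difference was -0.16 in place of -0.25.

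The ratios of Olig1, Olig2 and Cspg4 to Pdgfra were lowest in heterozygotes, as was that of Bcas1 above, whereas the Sox10 ratio overlapped between the genotypes. Olig1 counts per 100 Pdgfra counts were 29.4 and 31.04 in wild type at P30, 27.6 and 31.8 at P100, and 20.5 and 23.1 in heterozygotes. Cspg4 per 100 Pdgfra counts were 18.4 and 16.1, then 15.7 and 15, then 11.6 and 13.8. Olig2 counts were 12.9 and 16.6, then 17.4 and 15.9, then 9.67 and 12.2, and Sox10 counts 9.18 and 14.3, then 11.85 and 9.875, then 9.85 and 8.97. Between the ages, the Olig1, Olig2 and Sox10 ratios overlapped and the Cspg4 ratio was slightly lower at P100.

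Per kilobase of transcript, with lengths from GENCODE M21, which may differ from the annotation used for counting, levels could be compared between genes. At wild-type P30 the order in CPM per kilobase was Bcas1 (21.7 ± 0.0936, SD, n = 2), Pdgfra (15.8 ± 0.904), Olig1 (14.4 ± 0.282), Gpr17 (13.9 ± 1.57), Olig2 (5.999 ± 0.726), Enpp6 (4.53 ± 1.59), Sox10 (4.43 ± 1.13) and Cspg4 (2.19 ± 0.331). Bcas1 stood above Pdgfra in both libraries, and Pdgfra lay narrowly above Olig1 and Gpr17. Olig1 and Gpr17 overlapped each other, and Enpp6 overlapped both Olig2 and Sox10. The Enpp6 values here use the 1776 bases of its top transcript. Its protein-coding transcript has nearly the same counts over 4970 bases, which would give lower values per kilobase. The place of Enpp6 in this order therefore depends on the transcript used. At wild-type P100, Bcas1 (15.8 ± 2.29) remained above Pdgfra (11.3 ± 0.707) and Olig1 (10.1 ± 0.374). Gpr17 there was 6.04 ± 1.84 and overlapped Olig2 (4.86 ± 0.619), while Enpp6 came last at 0.960 ± 0.0260, below Cspg4 at 1.39 ± 0.133. In heterozygotes Pdgfra led at 17.2 ± 0.251, above Bcas1 at 14.97 ± 1.05, which overlapped Gpr17 at 14.5 ± 1.38.

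Isoforms of the same gene share reads, and their differences, given here as ratios of mean CPM, carry no test. The second Pdgfra transcript differed by -0.50 with age and 0.13 with genotype on the log2 scale. The other 4 Enpp6 transcripts differed by -1.65 to -2.28 with age, beside -2.24 for the top transcript. By genotype they differed by -0.55 to -1.62, beside -0.605 for the top transcript, the largest in a retained-intron transcript with 58 counts in all. The other 8 Bcas1 transcripts differed by -0.39 to -0.57 with age and by -0.29 to -0.79 with genotype, beside -0.455 and -0.535 for the top transcript. Between heterozygous P30 and wild-type P100, Bcas1 ENSMUST00000145920, which shares 440 bases with antisense genes, was higher in mean at 0.28, and the top transcript stood at -0.08. The other Enpp6 transcripts ran from 0.18 to 1.66 there, beside 1.63 for the top transcript.

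The authors' deposited table holds a DESeq comparison per transcript. Among the top transcripts of the 6 members called with age, 2 had an adjusted p under 0.05 there: Gpr17 (0.00101) and Pdgfra (0.00945). The protein-coding Enpp6 transcript, which shares nearly all reads with the top one, was also under 0.05 there (log2 -2.275, adjusted p = 0.0466). For the other top transcripts, DESeq gave adjusted p-values of 0.0502 for Enpp6, 0.0515 for Bcas1, 0.0739 for Olig1 and 0.127 for Cspg4. Their log2 age differences were -2.24, -0.45, -0.52 and -0.65. For genotype, the authors' deposited table gave Bcas1 -0.53 with an adjusted p of 0.00159.

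Other genes of these stages were taken from lists chosen with earlier results of these data known. Of 12 tested precursor genes besides the members, 5 fell with age and none rose, with a median log2 difference of -0.42. They were Susd5 (32.8 against 22.4 CPM at P100), the proteoglycan gene Vcan (43.3 against 30.3 CPM), Emid1 (2.75 against 1.09 CPM), the matrilin gene Matn4 (4.85 against 2.55 CPM) and, named because it completes the count, the AMPA receptor auxiliary subunit gene Cacng4 (9.74 against 5.93 CPM). None of the 12 was called by genotype, with a median of 0.09. Heterozygotes had 44.1 CPM of Susd5 (adjusted p = 0.0721 against wild-type P30) and 52.1 CPM of Vcan (adjusted p = 0.282).

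Of 15 tested genes of newly formed oligodendrocytes besides the members, 7 fell with age, none rose, and the median was -0.41. Examples were Cnksr3 (5.77 against 1.60 CPM at P100), Nfasc, which encodes the adhesion molecule neurofascin (281 against 208 CPM), the kinase gene Fyn (182 against 139 CPM) and the kinesin gene Kif19a (3.74 against 1.35 CPM). By genotype 2 of the 15 were called, both lower in heterozygotes: Cnksr3 at 2.47 CPM (adjusted p = 0.0205) and Nfasc at 224 CPM (adjusted p = 0.0363). The median genotype difference of the 15 was -0.08. The part of other cell types, neurons among them, in the Nfasc and Fyn values was not tested.

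**Figure D4:**
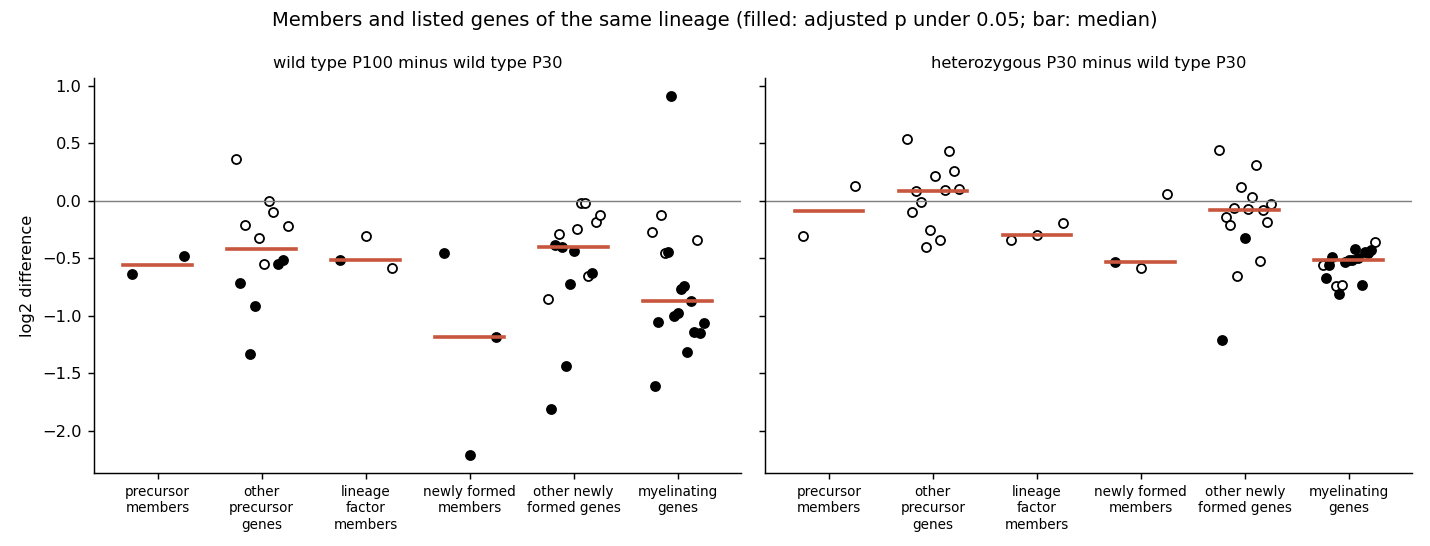
Log2 differences (vertical axes) of single genes (points, filled where the adjusted p was under 0.05) in the members and in lists of precursor, newly formed and myelinating oligodendrocyte genes, with the list median (bar), for age (left) and genotype (right). With age all of these lists have medians below 0, whereas with genotype the other precursor genes lie around 0 (median 0.09) and the myelinating genes lie below it (median -0.52).

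Genes of mature, myelinating oligodendrocytes were lower in both comparisons. Of 17 tested, 12 fell with age and 1, Hapln2, named after its values were seen, rose (median -0.87), and 13 fell by genotype with none rising (median -0.52). Their summed level was 3502 to 3673 CPM at wild-type P30, 1753 to 2065 CPM at wild-type P100 and 2539 to 2591 CPM in heterozygotes. The tight-junction gene Cldn11 went from 114 CPM at wild-type P30 to 37.0 CPM at P100 and 71.0 CPM in heterozygotes. The part of this myelin gene difference in the Bcas1 values was not tested.

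Regulators of precursor division and differentiation were mostly not called. Among 7 tested ligand genes, Igf1 rose with age (10.98 against 16.2 CPM, adjusted p = 0.0285) and none was called by genotype. Pdgfa, which encodes the ligand of the Pdgfra receptor and is named after its values were seen, was at 28.9 CPM at wild-type P30, 21.7 CPM at P100 (adjusted p = 0.0523) and 31.01 CPM in heterozygotes. Among 8 receptor genes, the lysophosphatidic acid receptor gene Lpar1 fell with age (45.4 against 21.6 CPM, adjusted p = 2.15e-04) and Igf1r rose (55.0 against 72.3 CPM, adjusted p = 0.0372). By genotype, Lpar1 (31.8 CPM, adjusted p = 0.0298) and the FGF receptor gene Fgfr2 (41.6 against 58.3 CPM, adjusted p = 0.00978) were lower in heterozygotes.

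Of 9 tested factors that promote differentiation, 2 fell with age, the Sox10 relative Sox8 (48.5 against 23.0 CPM, adjusted p = 1.87e-04) and the zinc finger gene Zfp488 (3.07 against 0.959 CPM, adjusted p = 0.0169). The median of this list was -0.66 with age and -0.52 with genotype, where Sox8 alone was called (29.4 CPM in heterozygotes, adjusted p = 0.0041). None of the 6 restraining factors was called in either comparison. Of 11 tested cell-cycle genes, Ccnb1, a mitotic cyclin gene, was called lower at P100 (1.82 against 0.406 CPM, adjusted p = 0.0364), none rose, and none was called by genotype. The Ccnb1 level at wild-type P100 rested on 10 and 1 counts. The median of the cell-cycle list was 0.11 with age and 0.21 with genotype.

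The genes whose centred log2 profile over the 6 libraries lay nearest to that of Pdgfra, among 14656 searched, were Cxadr (Euclidean distance 0.098), Ndufa1 (0.102), Grk5 (0.114), Usp6nl (0.122) and P2ry12 (0.128). The nearest other member was Cspg4, at a distance of 0.501 and only rank 1320 among genes without a Gm or Rik name. Nearest to Enpp6 were Mir5105 (0.307), Pdlim2 (0.745), Ncaph (0.789), Cldn11 (0.799) and Clec1a (0.857). Gpr17, at 1.257 and rank 49 by the same count, was the nearest member. These distances describe 6 libraries in 3 groups and carry no test.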

How the data were processed

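Total RNA of layer IV visual cortex was sequenced in 6 libraries, grouped by the labels. The deposited values used were raw read counts for 95533 transcripts, per the file headers. Per the submitters' processing notes, the tools were Bowtie, HTSeq and DESeq 1.8.3 and the build mm10. Settings, annotation and strandedness are not given in the sources used here. Comparison tables deposited by the authors held signal values (group means of counts divided by size factors), fold ratios, log2 fold changes, p-values and adjusted p-values per transcript, per the file headers; they were used only where named.

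Each of 34980 genes was represented by its most counted transcript. The 9669 transcripts without a gene, with 13.96% of the counts, were left out. Low counts were removed with filterByExpr. It kept genes with at least 15 counts in total and, in at least 2 libraries, a CPM matching 10 counts at the median library size. Kept genes were TMM-scaled and tested with edgeR 4.0.16 (R 4.3.3, quasi-likelihood, 3 groups over 6 libraries, 3 residual degrees of freedom). Benjamini-Hochberg adjustment and a threshold of 0.05 were used. Duplicates differed beyond sampling noise (chi-square 4.17 to 5.40 times its degrees of freedom). The fit was tested on simulated data. Alternatives, described in the closing section, included DESeq2 1.42.0 and limma-voom (limma 3.58.1).

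Besides the 8 members, named genes were up to 4 per list with the smallest p among those called with age or genotype, and the 5 nearest to Pdgfra and to Enpp6 in profile, among genes with a mean CPM of 1 or more and no Gm or Rik name; exceptions are marked, and not every gene meeting the rule is reported here. For that profile 0.1 was added before the logarithm. The 16 other lists covered lineage stages, regulators, cell cycle, mural, meningeal, astrocyte, microglial, neuronal, layer and choroid plexus markers. Members and lists were chosen with earlier results of these data known. Gene coordinates and lengths came from GENCODE M21.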

Additional observations from a re-analysis of the deposited data

How the results depend on the processing

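Each member was recomputed under 18 alternatives. Swaps of the Bcas1 and of the Enpp6 transcript, counted among the 18, change the counts of that gene only and do not bear on other members. Gpr17 and Enpp6 with age, and Pdgfra and Gpr17 between heterozygous P30 and wild-type P100, kept their calls under all 18. Members called lower with age numbered 6 (2 to 6 with 1 library left out), members lower by genotype 1 (0 to 1), and members higher in heterozygous P30 than in wild-type P100 tissue 3 (2 to 3). The genotype count was 0 with the Bcas1 transcript without antisense overlap, an alternative chosen after seeing the data, as were the protein-coding Enpp6 transcript and leaving out libraries for the precursor contrast. Signs that turned, none of them called, were Sox10 by genotype (0.105 without wild-type P30 replicate 2, with -0.42 as the other extreme on leaving out a library), Gpr17 by genotype (-0.047 without wild-type P30 replicate 1, -0.040 without heterozygous replicate 2, other extreme 0.186), Bcas1 between heterozygous P30 and wild-type P100 (0.076 without P100 replicate 1, other extreme -0.221) and Olig2 there (-0.005 with library totals and with limma-voom, -0.007 with the replicate block, -0.115 without P100 replicate 2, -0.191 without heterozygous replicate 2, other extreme 0.176). The cause of these changes was not tested.

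Over all genes, age calls of 475 higher and 719 lower became 764 and 1096 with no filter, 295 higher with DESeq2 and 297 higher with summed transcripts (118 to 417 and 233 to 661 with 1 library left out). Genotype calls of 143 and 368 became 392 and 728 with no filter, 94 higher with DESeq2, and 71 and 192 with summed transcripts (52 to 116 and 129 to 376). Calls between heterozygous P30 and wild-type P100, 386 and 422, became 758 and 715 with no filter and 246 and 256 with summed transcripts (120 to 469 and 135 to 473). The newly formed minus precursor difference in mean log2 CPM was -0.726 with age (-1.142 without Bcas1, -0.809 to -0.643 with 1 library left out), -0.253 by genotype (-0.147 with lineage factors among the precursor genes, -0.157 without Bcas1, -0.316 to -0.189) and 0.474 for heterozygous P30 against wild-type P100 (0.641, 0.985, 0.391 to 0.557). The labels do not say whether replicate numbers pair the samples. Deviations of same-numbered libraries correlated at -0.004, 0.1 and 0 between groups, which cannot show that they were unpaired. With the replicate block the members called stayed 6, 1 and 3. The Enpp6 level at P100 rested on 24 and 19 counts, which limits its precision.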

Other observations

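Glia outside the lineage also differed. Of 9 tested astrocyte genes, Aqp4, Gja1 and S100b fell with age and none rose. The water channel gene Aqp4 was at 160 CPM at wild-type P30, 109 CPM at P100 (adjusted p = 0.0014 by edgeR) and 123 CPM in heterozygotes (adjusted p = 0.0208). The connexin gene Gja1 was at 181, 131 and 170 CPM, called with age only (adjusted p = 0.00216, and 0.572 by genotype). Gfap was called by genotype (20.04 against 9.75 CPM, adjusted p = 0.046). Among microglial genes, the purinergic receptor gene P2ry12 fell with age and was not called by genotype. It stood at 52.8 CPM at wild-type P30, 38.8 CPM at P100 (adjusted p = 0.0142) and 58.0 CPM in heterozygotes, close to Pdgfra in profile.

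Few neuronal and layer markers were called with age or genotype, while the layer IV and deep-layer medians differed in sign by genotype. Of 6 neuronal genes, Slc17a7, the vesicular glutamate transporter of cortical excitatory cells, was lower at P100 (559 against 440 CPM, adjusted p = 0.00465) and none was called by genotype. Of 6 layer IV genes, Rspo1 rose with age (18.7 against 28.7 CPM, adjusted p = 0.0473), and Whrn (64.1 against 43.2 CPM, adjusted p = 0.00412) and Cux1 (119 against 88.5 CPM, adjusted p = 0.0153) were lower in heterozygotes. Markers of deep layers and subplate summed to 132 to 141 CPM at wild-type P30, 110 to 155 CPM at P100 and 167 to 186 CPM in heterozygotes. Of their 8 tested genes, Etv1 was called higher in heterozygotes (15.4 against 22.5 CPM, adjusted p = 0.0473). The median log2 genotype difference was -0.40 for the 6 layer IV genes and 0.48 for these 8. In heterozygous P30 against wild-type P100, the layer IV genes Rspo1, Scnn1a and Whrn were called lower and none higher. There, Etv1 and Ctgf of the deep-layer and subplate list were called higher and none lower. Scnn1a and Ctgf are named because they complete these calls. The part of the dissected depth in the values of the 8 lineage genes was not tested. Choroid plexus markers had 2 tested genes of 9, and neither was called.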
